A study of Danio rerio with 8 samples.

Results

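The genes described here are the iron carriers, iron stores and iron regulators of zebrafish (Danio rerio) liver, with a few plasma proteins of the acute phase response. They are tfa, tfr1a, tfr1b, fth1a, slc40a1, cp, hamp, hp and saa, chosen as the probes whose symbol in the array's annotation is one of these names. All 9 genes were found, with 19 probes, among 15548 genes with a symbol and 43603 probes on the array. The transferrin gene tfa has 6 probes, the ferroportin gene slc40a1 has 3, hamp, fth1a and hp have 2 each, and cp, tfr1a, tfr1b and saa have 1 each.

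Total RNA from liver was compared on 8 Agilent arrays that each carried a pair of RNA samples, one labelled with the red dye Cy5 and the other with the green dye Cy3. The 7 RNA samples were 2 each from fish on day 28 at 18 °C, at 26 °C and at 34 °C, and 1 from day 4 at 26 °C, and they followed each other round a loop, so that most were hybridised once in each colour. The labels name temperature, day and biological replicate, and do not give the strain, sex or age of the fish, how many fish a sample holds, or from which temperature they were moved. The p-values below therefore measure the spread between these samples.

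Vertebrate iron circulates bound to transferrin, enters cells through the transferrin receptor and is held inside them in ferritin. Ferroportin is the exporter by which iron leaves cells, copper-binding ceruloplasmin oxidises it on the way out, and the liver hormone hepcidin, the product of hamp, binds ferroportin and removes it from the membrane. Hepatocytes make transferrin, hepcidin, ceruloplasmin, haptoglobin and serum amyloid A, and inflammation or iron load changes how much of each they release.

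The deposited value for each probe and array is a ratio, taken here as a log2 ratio of Cy5 over Cy3. That direction is likely rather than stated: array titles name the Cy5 sample first, the dye scheme gives the same order, and limma, which the submitters' processing notes name, forms its ratios this way. Every sign below would turn if the ratios ran the other way. From the 8 ratios a level was computed for each RNA sample relative to the mean of the 7 samples. A level of 1.00 therefore means a doubling over that mean, and levels compare samples within a gene and never one gene with another. Array medians lay between -0.000725 and 0.00385, and between 43.2% and 82.8% of the probes on an array had a ratio within 0.1 of 0. No intensities were used here, so whether a probe with ratios near 0 was dim or unchanged was not tested, and the absolute level of a liver marker could not be read. The number of arrays limits the precision.

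Transferrin RNA was higher in the samples from 34 °C than in those from 18 °C, and hepcidin and haptoglobin RNA were also highest at 34 °C, with larger errors and without passing the test. The level of tfa was -0.96 and -1.17 in the 2 samples at 18 °C, -0.25 and -0.07 at 26 °C and 1.57 and 0.87 at 34 °C, and it was 0.00 in the day 4 sample at 26 °C. Both samples at 34 °C lay above all others and both at 18 °C below all others, so that no day 28 groups overlapped. The difference of 34 °C minus 18 °C was 2.28 ± 0.25 on the log2 scale (moderated SE, n = 2 each), a 4.86-fold higher level, and tfa passed the threshold there (limma, Benjamini-Hochberg adjusted p = 0.0477 over 35434 features). It was the 1 gene of the 9 to do so, where 0.982% of all features passed, 348 in number. On unadjusted p below 0.05, 4 of the 9 genes passed (tfa, hamp, hp and slc40a1), as did 13.9% of all features.

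**Figure D1:**
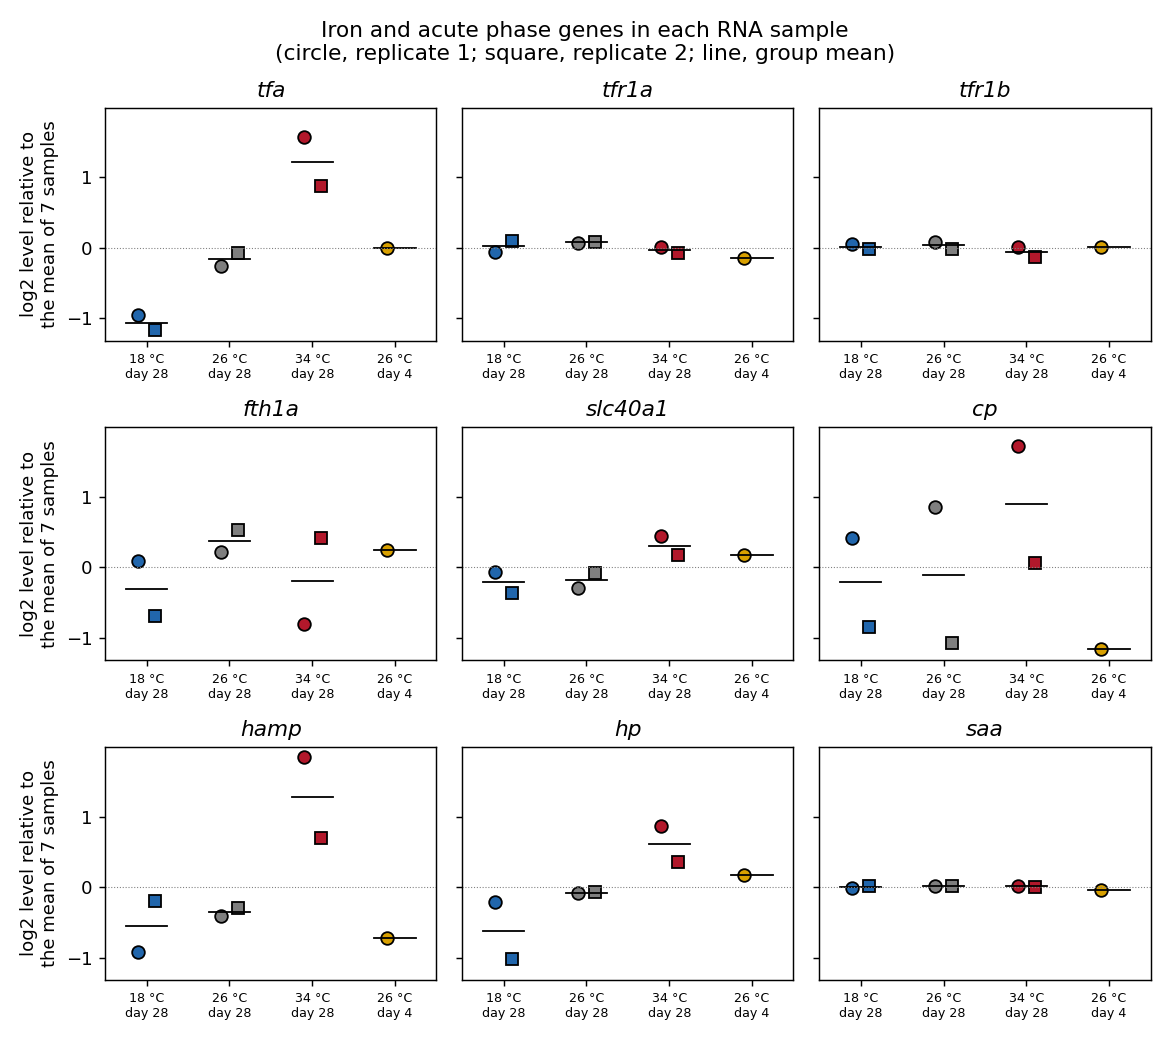
Level of each gene in each RNA sample, as log2 relative to the mean of the 7 samples (vertical axis), by temperature and day (horizontal axis). Circles are replicate 1, squares replicate 2 and lines group means. For tfa both samples at 34 °C (1.57 and 0.87) lie above all others and both at 18 °C (-0.96 and -1.17) below them, while tfr1a, tfr1b and saa span at most 0.24 over all samples.

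The tfa call was close to the threshold and needed all but 1 of the day 28 samples. Left out one at a time, the first and second 18 °C samples gave adjusted p = 0.132 and 0.152, the first 34 °C sample 0.0821, and either 26 °C sample 0.101, while without the second 34 °C sample it was 0.0441 (limma). The difference itself lay between 1.73 and 2.93 when each sample or each array was left out in turn. The 6 tfa probes were each higher at 34 °C than at 18 °C, by 0.88 for probe 3 up to 3.18 for probe 1, and none of them passed alone, with adjusted p of 0.0796 to 0.434. For 34 °C minus 26 °C, probe 3 gave -0.08 where the other 5 probes were positive. On the single array that paired 34 °C with 18 °C directly, in replicate 1, the tfa ratios ranged from 1.64 for probe 5 to 4.42 for probe 1, with a mean of 2.80.

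Against 26 °C, tfa was higher at 34 °C by 1.38 ± 0.25 (adjusted p = 0.265, limma) and lower at 18 °C, with a difference of -0.90 ± 0.25 (adjusted p = 0.804, limma), and neither passed. Each of the 3 arrays that paired a 34 °C with a 26 °C sample of day 28 had the 34 °C sample higher in the mean of the tfa probes. That mean was -1.31 and -1.53 with 34 °C in Cy3 and 1.21 with 34 °C in Cy5. On the array with 34 °C in Cy5, probe 3 alone went the other way, at -0.46. Both arrays with 34 °C in Cy3 held the first 34 °C sample, and the array with 34 °C in Cy5 held the second. Colour and 34 °C sample thus changed together, and no pair was repeated with its colours turned. The 3 arrays share RNA samples and are not independent. The tfa level of the day 4 sample fell just above both day 28 samples at 26 °C, and day 28 minus day 4 was -0.16 ± 0.31 (adjusted p = 0.852, limma, 2 samples against 1). Lower RNA per cell and fewer cells of the type that makes it cannot be told apart in these whole-liver samples, for tfa or any gene below.

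The ratios on each array show how the probes of a gene compare. The pair of hamp probes gave nearly the same ratio where it was large, with -2.21 and -2.22 on the array of the first 26 °C over the first 34 °C sample, and they disagreed in sign on 2 arrays with smaller ratios. The pair of hp probes did not move together: probe 1 ranged from -2.27 to 1.97 and probe 2 from -0.02 to 0.22. For slc40a1, probe 1 ranged from -1.81 to 0.77, probe 3 from -0.68 to 0.31, and probe 2 stayed between -0.16 and 0.05.

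**Figure D2:**
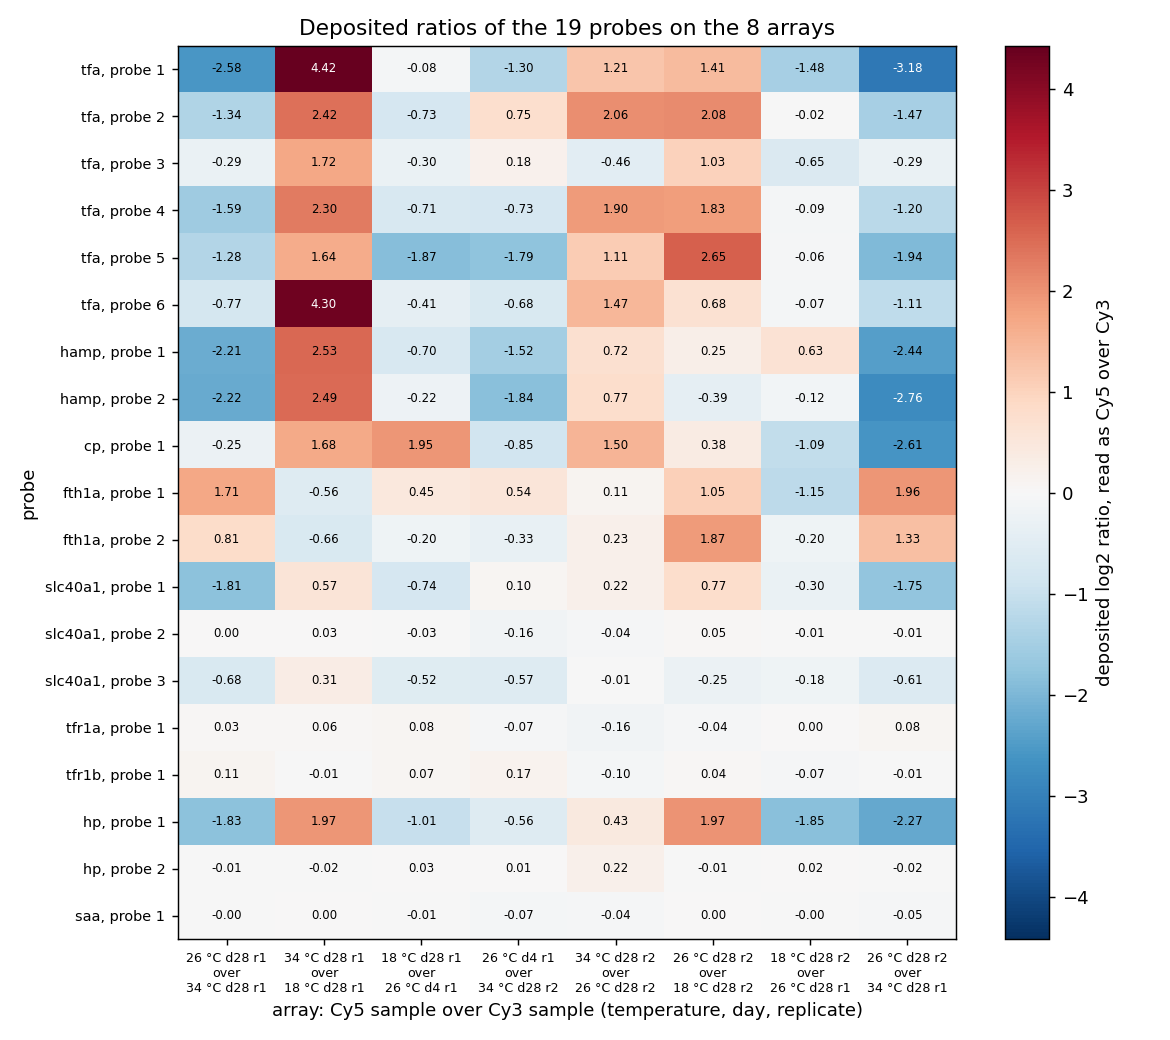
Deposited log2 ratio, read as Cy5 over Cy3, of each of the 19 probes (rows) on each of the 8 arrays (columns, named by temperature, day and replicate), with colour for sign and size. The largest ratio is 4.42, for tfa probe 1 on the array of 34 °C over 18 °C, and the rows of tfr1a, tfr1b, saa, hp probe 2 and slc40a1 probe 2 are close to 0 throughout.

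The probes of the 2 transferrin receptor genes, tfr1a and tfr1b, whose products take up iron-loaded transferrin, varied little. Each gene has 1 probe. As described below, that probe shared its value with other probes on 8 arrays for tfr1a and on 7 for tfr1b. Whether these RNAs were unchanged or were not measured by the probes was not tested. The tfr1a level was -0.05 and 0.10 at 18 °C, 0.07 and 0.08 at 26 °C, 0.01 and -0.08 at 34 °C, and -0.14 in the day 4 sample. Its lowest sample was the day 4 one, and day 28 minus day 4 at 26 °C was 0.22 ± 0.08, which did not pass (adjusted p = 0.645, limma). Both 34 °C samples lay below both 26 °C samples of day 28, by a mean difference of -0.11 ± 0.07 (adjusted p = 0.848, limma). The tfr1b level was 0.05 and -0.02 at 18 °C, 0.09 and -0.01 at 26 °C, 0.02 and -0.14 at 34 °C, and 0.01 on day 4, so its groups overlapped in every day 28 comparison. The receptors gave differences for 34 °C minus 18 °C of -0.05 ± 0.07 for tfr1a and -0.08 ± 0.07 for tfr1b (adjusted p = 0.883 and 0.832, limma).

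The ferritin heavy chain gene fth1a, which encodes the iron-oxidising subunit of the storage shell, showed no order by temperature. Its level was 0.09 and -0.69 at 18 °C, 0.22 and 0.53 at 26 °C, -0.80 and 0.42 at 34 °C, and 0.24 on day 4. The lowest and the second highest level were both from 34 °C, 1.22 apart. The 2 samples at 18 °C were below the 2 at 26 °C, by a mean difference of -0.68 ± 0.49 (adjusted p = 1.000, limma), and 34 °C minus 18 °C was 0.11 ± 0.49 (adjusted p = 0.974, limma). Its probes took opposite signs in that last comparison, -0.21 for probe 1 and 0.43 for probe 2.

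Ferroportin, encoded by slc40a1, was somewhat higher at 34 °C than at either other temperature without passing the test. Its level was -0.06 and -0.36 at 18 °C, -0.29 and -0.08 at 26 °C, 0.44 and 0.18 at 34 °C, and 0.17 on day 4. Both 34 °C samples were above all other day 28 samples, and the lower of them was close to the day 4 sample. The differences were 0.52 ± 0.15 for 34 °C minus 18 °C (adjusted p = 0.229, limma) and 0.49 ± 0.15 for 34 °C minus 26 °C (adjusted p = 0.441, limma). The 18 °C samples overlapped the 26 °C samples, with a difference of -0.03 ± 0.15. The gene value averages probe 2, near 0 on every array, with 2 probes that moved: for 34 °C minus 18 °C, probe 1 gave 1.07, probe 2 gave 0.06 and probe 3 gave 0.44.

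Ceruloplasmin, the ferroxidase of plasma encoded by cp, had the widest range of the 9 genes, 2.89, and differed more between replicates than between temperatures. Its level was 0.42 and -0.84 at 18 °C, 0.86 and -1.07 at 26 °C, 1.73 and 0.06 at 34 °C, and -1.16 on day 4. At each temperature replicate 1 was above replicate 2, by 1.26 at 18 °C, 1.94 at 26 °C and 1.67 at 34 °C. The largest difference between day 28 group means was smaller, 1.1 ± 0.94 for 34 °C minus 18 °C (adjusted p = 0.790, limma), and no groups of day 28 were apart. With 1 probe, cp has no second reading on the array.

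Hepcidin RNA was highest in both 34 °C samples. The hamp level was -0.92 and -0.19 at 18 °C, -0.41 and -0.30 at 26 °C, 1.84 and 0.70 at 34 °C, and -0.72 on day 4. The samples from 18 °C enclosed those from 26 °C, with a difference of -0.21 ± 0.45 (adjusted p = 1.000, limma), so the order seen in tfa between these temperatures was absent in hamp. The 34 °C samples were 1.14 apart and still above every other sample, with differences of 1.83 ± 0.45 from 18 °C, 3.56-fold (adjusted p = 0.163, limma), and 1.62 ± 0.45 from 26 °C, 3.08-fold (adjusted p = 0.382, limma). The 3 arrays that paired 34 °C with 26 °C on day 28 gave hamp ratios of -2.21 and -2.60 with 34 °C in Cy3 and 0.75 with 34 °C in Cy5, so 34 °C was the higher sample on each. As described for tfa, colour and 34 °C sample changed together on these arrays, which share RNA samples. Both hamp probes had the same sign as the gene in these comparisons, with 1.87 and 1.79 for 34 °C minus 18 °C.

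Haptoglobin, which binds free haemoglobin in plasma, followed the order of temperature with 1 of its 2 probes. The hp level was -0.21 and -1.03 at 18 °C, -0.08 and -0.08 at 26 °C, 0.87 and 0.35 at 34 °C, and 0.18 on day 4. No day 28 groups overlapped. The differences were 1.23 ± 0.32 for 34 °C minus 18 °C (adjusted p = 0.184, limma), 0.69 ± 0.32 for 34 °C minus 26 °C (adjusted p = 0.719, limma) and -0.54 ± 0.32 for 18 °C minus 26 °C (adjusted p = 1.000, limma). Probe 1 alone gave 2.41 for 34 °C minus 18 °C and probe 2 gave 0.04, so the gene's mean is set by probe 1. Serum amyloid A, an acute phase protein whose RNA can rise steeply in inflamed vertebrate liver, had the smallest range of the 9 genes: its level lay between -0.04 and 0.01 in all 7 samples, and 34 °C minus 18 °C was 0.01 ± 0.04 (adjusted p = 0.952, limma). Only 1.56% of genes with a symbol had a smaller range than saa, whereas 98.5%, 98.3% and 98.2% had a smaller range than cp, hamp and tfa.

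**Figure D3:**
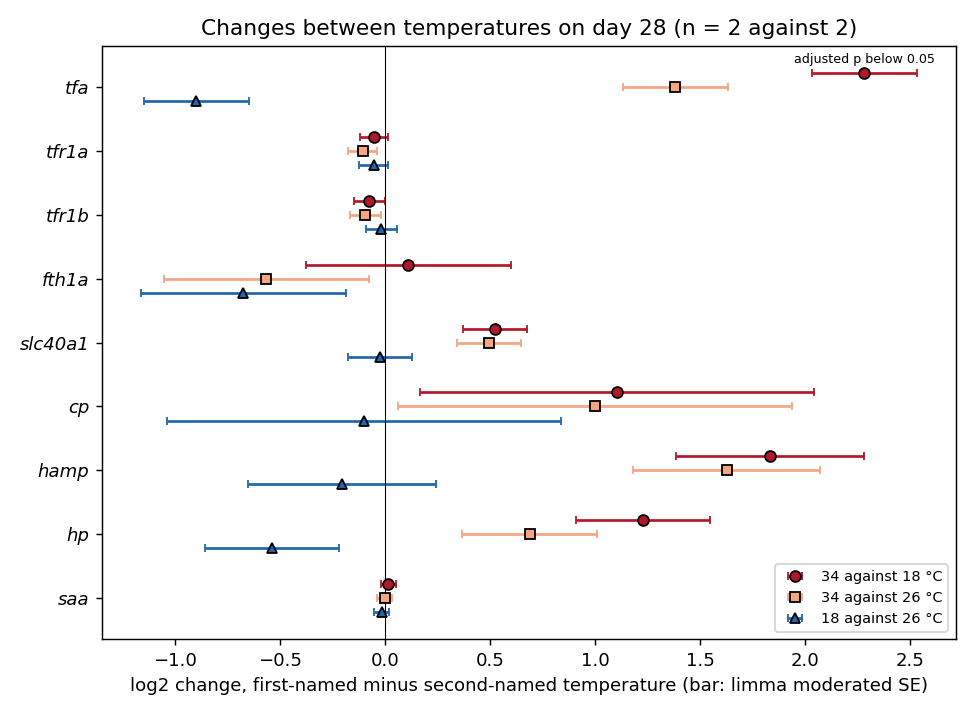
Difference in log2 level between day 28 temperatures (horizontal axis, first-named minus second-named) for each gene, with the moderated SE as bars and 2 samples a group. The 34 against 18 °C difference of tfa, 2.28, is the 1 point with an adjusted p below 0.05, and hamp and hp follow at 1.83 and 1.23. All 9 points of 18 against 26 °C lie below 0, with tfr1a, tfr1b, slc40a1 and saa close to it, from -0.06 to -0.02.

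Over the 9 genes, 7 were higher and 2 lower at 34 °C than at 18 °C, with a median difference of 0.52 against 0.00 over all features. For 34 °C minus 26 °C, 5 were higher and 4 lower, with a median of 0.49. For 18 °C minus 26 °C all 9 were lower, with a median of -0.10, where 49.4% of all features were higher. Of these, tfr1a, tfr1b, slc40a1 and saa were close to 0, from -0.06 to -0.02. The signs of hamp, cp and slc40a1 turned in 7, 7 and 8 alternatives. At 26 °C, 6 were higher and 3 lower on day 28 than on day 4, with a median of 0.05. None of the 9 passed at 34 °C against 26 °C, where 0% of all features did, nor at 18 °C against 26 °C, where 0.00282% did, 1 feature in number, nor at day 28 against day 4, where 0% did (limma). On unadjusted p below 0.05, 3 of the 9 passed at 34 °C against 26 °C, where 8.79% of all features did, 1 at 18 °C against 26 °C, where 4.43% did, and 0 at day 28 against day 4, where 6.73% did. These comparisons share samples, so their signs are not independent of each other.

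Groups of 2 samples often do not overlap, and the genes' counts are read against that. For 34 °C against 18 °C the samples were fully apart and higher for 4 of the 9 genes (tfa, hamp, hp and slc40a1), as for 18.3% of all features, and lower for 0, as for 18.6%. Against 26 °C, the 34 °C samples were fully apart and higher for the same 4 genes, as for 18.6% of features, and lower for tfr1a, as for 20.2%. The 18 °C samples were fully apart from 26 °C and lower for 4 genes (tfa, fth1a, hp and saa), as for 13.5% of features, and higher for 0, as for 11.7%. For saa this rested on levels that all lay between -0.02 and 0.01.

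A fit of limma to the arrays themselves, which treats the 8 ratios as independent although neighbouring arrays share RNA, called more. At 34 °C against 18 °C it passed tfa, hamp and hp, with adjusted p of 0.00725, 0.0277 and 0.0277, 3 of the 9 genes where 8.45% of all features passed. At 34 °C against 26 °C it passed tfa and hamp, with adjusted p of 0.0268 and 0.0345, 2 of the 9 where 3.87% passed. Its differences were close to those above, 2.37 for tfa, 2.05 for hamp and 1.26 for hp at 34 °C minus 18 °C. It passed none of the 9 genes at 18 °C against 26 °C, where it passed 29 of the 35434 features. Nor did it pass any at day 28 against day 4, where it passed 0 features.

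Many probes on these arrays carried a deposited value identical to that of other probes on the same array, a property found after the values were seen. A value was shared on all 8 arrays by 55.8% of probes and on none by 8.32%. Among the genes here, the probes of saa and tfr1a, probe 2 of hp and probe 2 of slc40a1 shared theirs on all 8 arrays, saa with 19 to 199 other probes on an array, and tfr1b on 7. The probes of tfa, hamp, cp and fth1a and probe 1 of hp shared none. The near-0 probes in this set were thus those with shared values: 4 of the 19 probes had every ratio below 0.2 in size, against 47.4% of all probes, and shared values were below 0.1 in size in 77.9% of cases, against 15.5% of unshared ones.

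When probes sharing a value on 4 or more arrays were left out, a choice made after seeing the data, 9101 probes in 7495 features were kept. At 34 °C against 18 °C, tfa, hamp and hp then passed, with adjusted p of 0.0161, 0.0334 and 0.0346 (limma), 3 of the 6 genes left where 20.4% of features passed. Without its second probe hp gave 2.41 ± 0.57, and slc40a1 gave 0.75 ± 0.28 and did not pass (adjusted p = 0.0977, limma). Leaving these probes out also removes mostly small ratios, and for tfa and hamp the differences were the same as before, with SEs of 0.29 and 0.43 against 0.25 and 0.45 over all features; what lowered their adjusted p was not tested. The genes tfr1a, tfr1b and saa had no probe left. None of the 6 genes left passed at 34 °C against 26 °C in this setting, where 0 of all features passed.

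Markers of the liver's main cell type stood in much the same order over the samples as tfa. Of 25 hepatocyte markers listed, 21 were measured, among them apoa1a, apoa1b and apoa2, and all 21 were higher at 34 °C than at 18 °C, with a median difference of 1.46. None of the 21 passed alone (15 had an unadjusted p below 0.05, and the fit to the arrays passed 10). Over all features those shares were 13.9% and 8.45%, against which the counts of the lists below are also to be read. By sample, the median hepatocyte marker level was -0.47 and -0.84 at 18 °C, 0.14 and -0.29 at 26 °C, 1.15 and 0.28 at 34 °C and -0.11 on day 4, and 2, 0, 15, 7, 21, 17 and 8 of the 21 were above 0 in those samples. Their part in the tfa difference was not tested. The list includes cp itself.

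Markers of oocytes, which are no part of the liver, ran the other way. All 21 measured oocyte markers of 24, among them the egg envelope genes zp2.1, zp2.2 and zp2.3, were lower at 34 °C than at 18 °C, with a median of -2.45, and 3 of them passed (zp3a.1, nanog and mos, with adjusted p of 0.0450 to 0.0490, limma). Their median level was 0.77 and 1.76 at 18 °C, 0.03 and 0.31 at 26 °C, -1.39 and -1.09 at 34 °C and -0.30 on day 4. The labels give no sex, and the part of these RNAs in the levels of the iron genes was not tested. Exocrine pancreas markers, 21 of 26 measured and among them prss1, prss59.1 and prss59.2, had a median difference of 1.41 at 34 °C minus 18 °C with 18 higher and none passing (3 with an unadjusted p below 0.05, and 1 in the fit to the arrays). By sample the pancreas median was -1.37 and -0.32 at 18 °C, 0.75 and -1.06 at 26 °C, 0.90 and 0.16 at 34 °C and 0.92 on day 4, so it differed widely within a temperature.

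Erythrocyte markers, 19 of 25 measured, stood between -0.07 and 0.04 in every sample by their median, and that median did not follow tfa. Single genes of the list went both ways at 34 °C minus 18 °C, 13 higher and 6 lower, from -0.58 to 1.06. The globin genes hbaa2 and hbba2, first in list order of those measured, gave -0.58 and 0.45. Whether the blood content of the samples differed was not tested. Macrophage markers, 22 of 24 measured with slc40a1 among them, had a median between -0.20 and 0.18 in every sample. At 34 °C minus 18 °C, 20 were higher, with a median difference of 0.31 and single genes from -0.04 to 1.04. Neither list had a gene that passed at 34 °C against 18 °C (3 of the erythrocyte and 10 of the macrophage markers had an unadjusted p below 0.05, and the fit to the arrays passed 2 and 7).

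**Figure D4:**
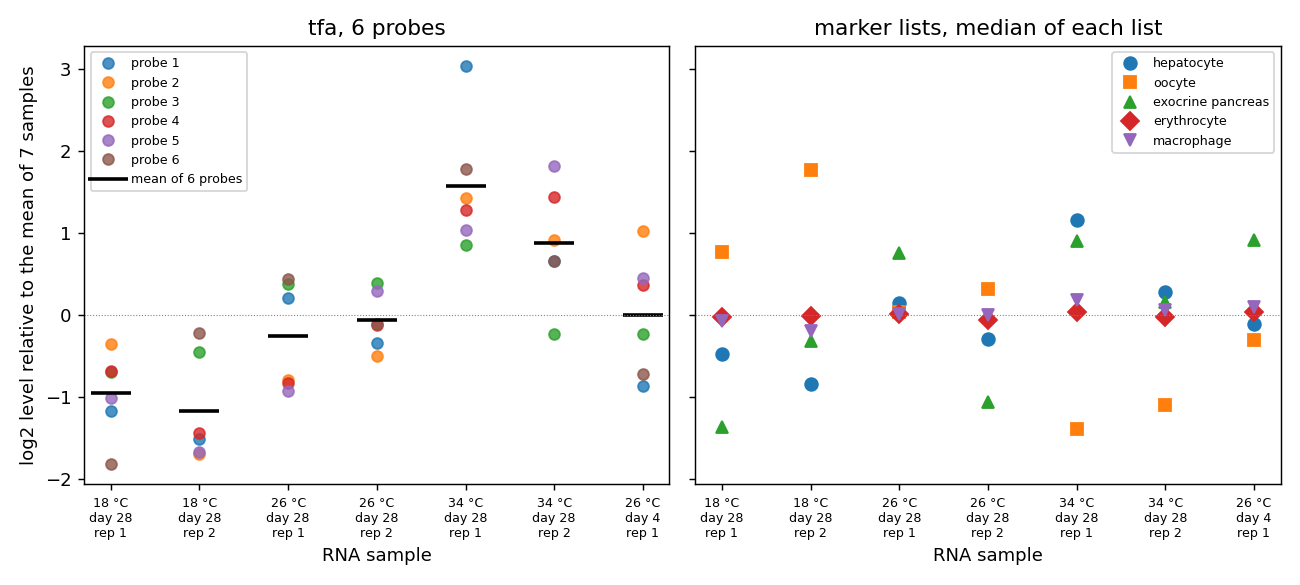
Left, levels of the 6 tfa probes and their mean in each RNA sample. Right, median level of each marker list in the same samples, both as log2 relative to the mean of the 7 samples. The tfa mean and the hepatocyte median are both highest in the first 34 °C sample (1.57 and 1.15), and the oocyte median is highest in the second 18 °C sample (1.76), where tfa is lowest (-1.17).

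Set against the hepatocyte marker median of the same sample, a comparison added after seeing the data, the RNAs of tfa, hamp, hp and cp did not behave alike. The saa gene, whose product hepatocytes also make, was not included. The tfa level minus that median was -0.48 and -0.33 at 18 °C, -0.40 and 0.22 at 26 °C, 0.41 and 0.59 at 34 °C and 0.12 on day 4. Both 34 °C samples were thus above the marker median, and above the other 5 samples, by less than the tfa level alone shows. The lower of them, 0.41, was closer to the nearest other sample, 0.22, than the 26 °C samples were to each other. How many of all features would stand apart after the same subtraction was not computed. For hamp the values were -0.45 and 0.65 at 18 °C, -0.55 and -0.01 at 26 °C, 0.69 and 0.43 at 34 °C and -0.61 on day 4, and the 18 °C samples reached into the range of the 34 °C samples. For hp, taken as the mean of its 2 probes, all 7 values lay between -0.29 and 0.29, with no group at 18 °C or 34 °C apart from the other. That mean includes probe 2, whose level stayed between -0.09 and 0.09. Probe 1 alone gave 2.41 for 34 °C minus 18 °C, against 1.23 for the mean. Set against the marker median, probe 1 alone did not overlap between 34 °C and 18 °C. At 34 °C it was 1.75 and 0.61, above medians of 1.15 and 0.28. At 18 °C the first sample was level with its median, both -0.47, and the second lay below its median of -0.84. The second 26 °C sample (-0.07 against -0.29) and the day 4 sample (0.29 against -0.11) were also above. The first 26 °C sample was below (-0.11 against 0.14). No p-value was computed for this comparison. For cp, with itself taken out of the list, replicate 1 remained above replicate 2 at each temperature, by values of 0.92 and 0.04 at 18 °C, 0.73 and -0.80 at 26 °C, and 0.62 and -0.28 at 34 °C, with -1.07 on day 4.

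The other genes of iron handling showed no common direction. Of 33 listed further genes of iron transport and storage, 20 were measured and none passed at 34 °C against 18 °C (8 higher, 12 lower, median -0.04, 2 with an unadjusted p below 0.05 and 1 in the fit to the arrays). Over all features the last 2 shares were 13.9% and 8.45%. The ferritin-like gene fthl28 was -1.89 and -0.26 at 34 °C, against 0.43 and 0.34 at 18 °C, a difference of -1.46 ± 0.54 (adjusted p = 0.345, limma). The haem transporter gene slc48a1a gave 0.17 ± 0.04, the melanotransferrin gene meltf 0.30 ± 0.12 and the mitoferrin gene slc25a37 -0.16 ± 0.06 (adjusted p of 0.156 to 0.385, limma).

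Hepcidin transcription is under the control of bone morphogenetic protein (BMP) signalling, in which smad5 carries the signal and id1 is a common target gene. Of 27 listed genes of iron sensing and hepcidin control, 21 were measured and none passed at 34 °C against 18 °C (12 higher, 9 lower, median 0.04, 7 with an unadjusted p below 0.05 and 5 in the fit to the arrays). The id1 level was 0.33 and 0.36 at 34 °C, against -0.56 and -0.33 at 18 °C, with a difference of 0.79 ± 0.10 that lay just outside the threshold (adjusted p = 0.0541, limma). It was -0.13 and 0.02 at 26 °C on day 28 and 0.31 on day 4, so the day 4 sample lay near the 34 °C samples, which was not so for hamp. The hypoxia-inducible factor gene epas1b gave 1.27 ± 0.21 and the BMP receptor gene bmpr2b 0.22 ± 0.04 (adjusted p = 0.0815 and 0.104, limma). In the opposite direction, smad5 was -0.41 and -1.30 at 34 °C, against 0.38 and 0.98 at 18 °C, a difference of -1.54 ± 0.36 (adjusted p = 0.147, limma). That rests on 1 probe, and the smad5 level in the day 4 sample, -0.69, lay between the 34 °C samples. The smad1 gene of the same list was higher at 34 °C than at 18 °C, by 0.43 ± 0.11 (adjusted p = 0.168, limma). All 3 of its probes were higher.

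Genes of haem and of iron-sulphur clusters leaned lower at 34 °C by small medians, and none passed. Of 16 listed genes of haem synthesis and breakdown, 15 were measured (5 higher, 10 lower at 34 °C than at 18 °C, median -0.08, 5 with an unadjusted p below 0.05 and 4 in the fit to the arrays). The synthesis genes ppox and fech gave -0.28 ± 0.07 and -0.25 ± 0.08, and the breakdown genes hmox2a and blvrb gave 0.34 ± 0.08 and 0.79 ± 0.27 (adjusted p of 0.160 to 0.291, limma). Another breakdown gene, hmox1b, went the other way, by -0.90 ± 0.32 (adjusted p = 0.326, limma), so breakdown genes had no common direction. For 34 °C minus 26 °C, blvrb gave 0.01 ± 0.27. Of 15 listed genes of iron-sulphur cluster assembly, 11 were measured (3 higher, 8 lower, median -0.08, 2 with an unadjusted p below 0.05 and 1 in the fit to the arrays). The cysteine desulphurase gene nfs1, which supplies the sulphur, was -0.82 and -1.34 at 34 °C, against 0.10 and 1.00 at 18 °C, a difference of -1.63 ± 0.38 (adjusted p = 0.151, limma). Its level in the day 4 sample was -0.45, also below every other sample of 26 °C or 18 °C. The glutaredoxin gene glrx5, the bola3 gene and isca1 gave -1.01 ± 0.29, -1.38 ± 0.72 and 0.78 ± 0.36 (adjusted p of 0.228 to 0.570, limma).

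Plasma proteins of the acute phase class had the median farthest from 0 of the 6 pathway lists. Of 48 listed further genes, 30 were measured, and 25 were higher and 5 lower at 34 °C than at 18 °C, with a median of 1.19 against 0.00 over all features. Single genes ran from -1.50 to 2.71. The list was not split by whether a gene rises or falls in an acute phase response. Whether its median reflects such a response was not tested. None passed in the fit to the sample levels, 16 had an unadjusted p below 0.05, and all 16 were higher at 34 °C. The fit to the arrays passed 14. The complement gene c3a.1 was 1.25 and 1.56 at 34 °C, against -0.88 and -1.26 at 18 °C, a difference of 2.48 ± 0.30 (adjusted p = 0.0509, limma). The retinol carrier gene rbp4 gave 1.74 ± 0.21, with its 2 probes of opposite sign, and the vitronectin genes vtna and vtnb gave 2.1 ± 0.28 and 1.80 ± 0.26 (adjusted p of 0.0511 to 0.0653, limma). The list's median for 34 °C minus 26 °C was 0.69, with 25 higher and 5 lower, and for 18 °C minus 26 °C it was -0.39, with 8 higher and 22 lower. Several of these genes, such as rbp4 and vtnb, are also among the hepatocyte markers, whose median difference was 1.46. The saa level stayed near 0, but its 1 probe shared its value with other probes on all 8 arrays. Whether saa RNA was unchanged or was not measured by that probe was not tested.

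Signalling genes of the acute phase response, 19 of 25 measured, were 10 higher and 9 lower at 34 °C than at 18 °C, with a median of 0.06 and none passing (5 with an unadjusted p below 0.05 and 5 in the fit to the arrays). The liver transcription factor gene cebpa was 0.59 and 0.43 at 34 °C, against -0.19 and -0.46 at 18 °C, a difference of 0.84 ± 0.11 (adjusted p = 0.0588, limma). The kinase genes jak1, jak2a and jak2b, which act below cytokine receptors, gave 1.12 ± 0.18, 0.54 ± 0.09 and 0.95 ± 0.17 (adjusted p of 0.0754 to 0.0943, limma).

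**Figure D5:**
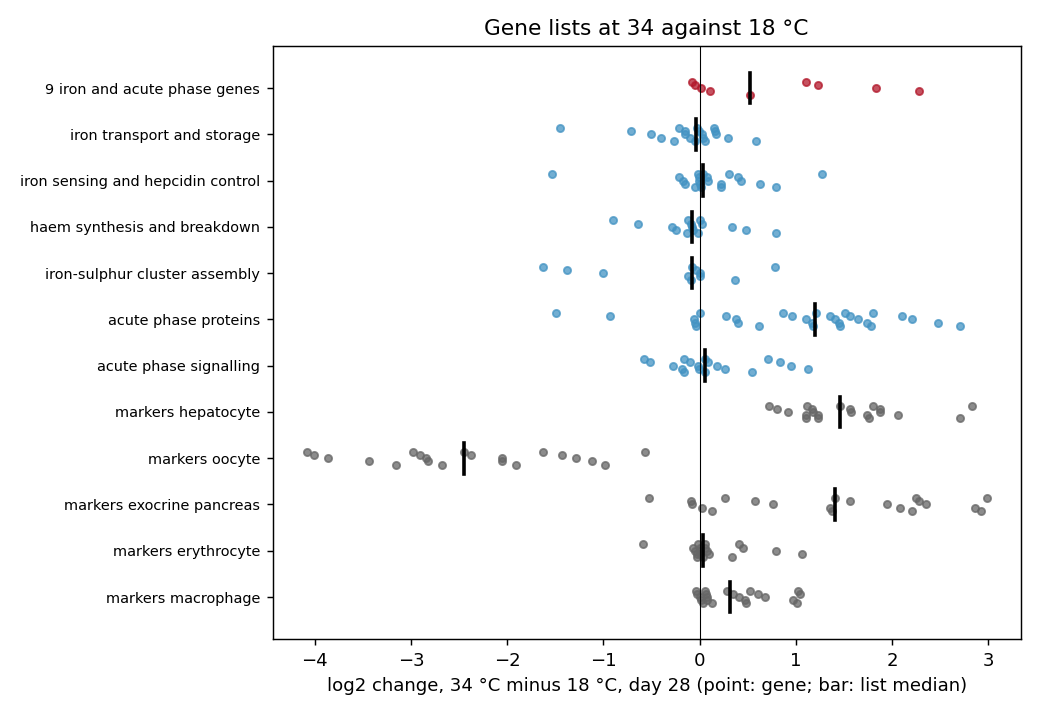
Difference in log2 level, 34 °C minus 18 °C on day 28, of every measured gene of each list (points) with the list's median (bars). The acute phase proteins and the hepatocyte markers have medians of 1.19 and 1.46, the iron transport and storage genes of -0.04, and the oocyte markers of -2.45.

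The genes whose 7 levels were most like those of a member were found by Pearson correlation among 3018 genes with a spread of at least 0.3 (SD), for the 5 members with an SD of at least 0.5. These coefficients describe 7 samples from the same arrays, whose levels sum to 0, and many genes reach high values. For tfa they were tax1bp1b, hhex and dao.2, each with r = 0.989, and 9.01% of the 3018 genes had r above 0.9. For hp they were agt, dhrs13a.1 and sccpdhb (r = 0.994, 0.990 and 0.983), with 6.03% above 0.9. Fewer genes resembled hamp, with eif4a1b, hspb6 and amdhd1 first (r = 0.978, 0.968 and 0.966) and 2.12% above 0.9. For cp the first were ppp1cbl, lias and qsox1 (r = 0.960, 0.954 and 0.949), with 0.497% above 0.9. For fth1a they were tm2d3, adkb and akr7a3 (r = 0.934, 0.934 and 0.933), with 0.265% above 0.9.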

How the data were processed

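The authors deposited 1 log2 ratio per probe and array for 43603 probes and 8 arrays, with no missing value. That the base is 2 was taken from the range of the values. The submitters' processing notes name limma. Not given in the sources used here: background correction, normalisation, probe filters.

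Of the probes, 23717 had 1 gene symbol in the platform annotation and 19886 had none here; symbols were updated by Entrez ID or accession. Probes of a symbol were averaged, giving 35434 features. Least squares with a dye effect turned the 8 ratios of each feature into 7 sample levels, with 1 residual degree of freedom to spare. The 7 levels were then compared between the groups that the labels' source names give, with limma 3.58.1 in R 4.3.3 (lmFit, eBayes, 3 residual and 1.631 prior degrees of freedom), with Benjamini-Hochberg adjustment over all features and a threshold of 0.05. The steps were tested on simulated data, in which the spread between samples was none or smaller than the array noise. Spread in the real data could be larger: cp replicates at 26 °C were 1.94 apart, where its largest array residual was 0.25. The simulation does not cover such genes.

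The members and lists were chosen with earlier results of these data known. All 9 members are named. Of each pathway list, all genes past the threshold and up to 4 with the smallest p at 34 °C against 18 °C are named. The genes smad1 and hmox1b were added after their values were seen. Of the marker lists, up to 3 genes are named in list order, whatever their p, and the oocyte genes that passed were added after their values were seen.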

Additional observations from a re-analysis of the deposited data

How the results depend on the processing

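Over the 9 genes and 4 comparisons, 78 values turned sign under an alternative, all of them for differences that had not passed; the cause was not tested. The higher tfa level at 34 °C than at 18 °C kept its sign in all 30 alternatives (0.88 to 3.18) and its call in 8. These alternatives are not all separate checks. Leaving out the day 4 sample, or taking the day 28 samples without a block, repeats the main fit, because a group of 1 adds no spread. The fit without the day 4 sample is also among the 15 cases below. Leaving out either 26 °C sample repeats the fit to the compared groups alone. At 34 °C against 18 °C, leaving out either array that held the day 4 sample gives the same fit, with 1.73 ± 0.69 for tfa. Scaling the arrays to the same spread ended that call (adjusted p = 0.212, limma), as did robust limma (0.0577) and a fit to the compared groups alone (0.101); it held without a dye term (0.0426) and with the median of the probes (0.0467). Leaving out each sample or array in turn kept it in 3 of 15 cases, which are not all separate fits. The sample level fit rests on 3 residual degrees of freedom, and no filter on dim probes, slide or scan batch could be tried, because no intensities or scanner files were used here.

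The 348 features called at 34 °C against 18 °C became 0 with equal array spread, 226 with each probe on its own and 2994 with the arrays directly. They became 0 with the compared groups alone, 1529 without shared values, and 0 to 246 when an array was left out. Members called became 0 with equal array spread, 0 with each probe on its own, 3 with the arrays directly, 0 with the compared groups alone, 0 with robust limma, 3 without shared values, and 0 to 1 when a sample or array was left out. At 34 °C against 26 °C the arrays directly gave 1372 features and 2 members, and leaving one out gave 0 to 2 features. The 1 feature at 18 °C against 26 °C became 29 with the arrays directly, 0 with equal array spread, each probe on its own, the compared groups alone or no shared values, and 0 to 1 when one was left out.

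With replicate number as a block (replicate block), 237 features and 0 members passed at 34 °C against 18 °C, tfa having adjusted p = 0.0735 (limma), and 0 features at 18 °C against 26 °C. Deviations of same-numbered samples correlated over all features at -0.15 for 18 and 26 °C, -0.13 for 18 and 34 °C and 0.41 for 26 and 34 °C. The correlation was thus positive for 26 and 34 °C only, and whether the numbers mark a pairing was not tested. For cp the block lowered the SE of 34 °C minus 18 °C from 0.94 to 0.19, and cp did not pass (adjusted p = 0.133, limma).

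Signs turned as follows. For 34 °C minus 26 °C, tfa probe 3 gave -0.083, slc40a1 probe 2 gave -0.0043, and saa gave 0.0041 with the arrays directly and 0.00104 without a dye term. For 18 °C minus 26 °C, hamp gave 0.25 with equal array spread, slc40a1 probe 1 gave 0.074 and hp probe 2 gave 0.064. For 34 °C minus 18 °C, fth1a gave -0.21 with probe 1 and -0.15 with the arrays directly. For day 28 minus day 4, hamp gave -0.60 with equal array spread and -0.32 with the arrays directly, tfa probes 1, 3 and 6 gave 0.80, 0.62 and 0.87, fth1a probe 2 gave -0.15 and slc40a1 probe 2 gave 0.10.

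Leaving out samples or arrays in turn, the differences that turned ranged as follows. For 34 °C minus 26 °C, fth1a lay between -1.18 and 0.042 and saa between -0.018 and 0.13. For 18 °C minus 26 °C, hamp lay between -1.14 and 0.31, cp between -1.07 and 0.87, slc40a1 between -0.36 and 0.16, saa between -0.11 and 0.036, tfr1a between -0.13 and 0.022, and tfr1b between -0.069 and 0.031. For 34 °C minus 18 °C, fth1a lay between -0.50 and 0.72, saa between -0.054 and 0.094, tfr1a between -0.13 and 0.023, and tfr1b between -0.15 and 0.00057. For day 28 minus day 4, tfa lay between -1.47 and 0.94, hamp between -1.21 and 1.70, cp between -0.28 and 2.18, fth1a between -0.064 and 0.36, slc40a1 between -0.92 and 0.12, tfr1b between -0.024 and 0.080, hp between -0.99 and 0.37, and saa between -0.11 and 0.19.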
